A study of Mus musculus with 6 samples.

Results

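The genes described here are 8 inducible transcription factor genes, 5 of the Krüppel-like (KLF) family (*Klf2*, *Klf3*, *Klf4*, *Klf6* and *Klf13*), the early growth response gene *Egr2*, and the orphan nuclear receptor genes *Nr4a2* and *Nr4a3*. They were chosen by gene symbol, and all 8 were found among the 38739 genes of the table. RNA was sequenced from peritoneal neutrophils of cGAS knockout mice on a C57B/L6 background, 3 untreated samples kept for 2 h in medium and 3 samples kept for 2 h with LPS, the endotoxin of Gram-negative bacteria. All 6 samples carry the deletion of cGAS, the cytosolic sensor of double-stranded DNA, and no wild-type sample was analysed here, so the values describe the response to LPS in the absence of cGAS. The dose of LPS, from *E. coli*, was 500 ng/mL by the sample labels, whereas the methods of the study state a lower one. The cells were washed from the peritoneum after an injection of thioglycolate, with no sorting step described. Whether the 3 samples of a group came from separate mice is not given, so the p-values measure the spread between these samples, which may be technical. No depth can be given, because the values are scaled TPM, a length-corrected unit of transcript abundance, and not read counts.

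KLF proteins bind GC-rich and CACCC elements through C2H2 zinc fingers. KLF2 is known to restrain inflammatory activation of myeloid cells and to keep lymphocytes quiescent, KLF4 takes part in monocyte differentiation, and KLF6 is a widely expressed, rapidly induced member. KLF3 and KLF13 act largely as a repressor and as a regulator of lymphocyte cytokine genes, respectively. EGR2 is an immediate-early zinc finger factor, and the NR4A receptors are immediate-early nuclear receptors that are controlled mainly through their amount, since they have no known classical ligand.

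The regions before the start sites of members that are described most closely are shown first, since both NR4A genes carry the same short element several times. Each stretch is the 250 bases upstream of the RefSeq start on GRCm38.p6, written 5′ to 3′ on the strand of the gene. Capitals mark TGACG, the half-site of the cyclic AMP response element, and CCAAT, each on either strand.
Nr4a3 (chr4:48045055-48045304, plus strand): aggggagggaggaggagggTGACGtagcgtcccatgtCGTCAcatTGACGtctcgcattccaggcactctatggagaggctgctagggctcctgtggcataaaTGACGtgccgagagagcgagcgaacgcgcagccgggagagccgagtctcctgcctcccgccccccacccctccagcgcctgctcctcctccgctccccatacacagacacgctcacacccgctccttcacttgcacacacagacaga
Nr4a2 (chr2:57124004-57124253, minus strand): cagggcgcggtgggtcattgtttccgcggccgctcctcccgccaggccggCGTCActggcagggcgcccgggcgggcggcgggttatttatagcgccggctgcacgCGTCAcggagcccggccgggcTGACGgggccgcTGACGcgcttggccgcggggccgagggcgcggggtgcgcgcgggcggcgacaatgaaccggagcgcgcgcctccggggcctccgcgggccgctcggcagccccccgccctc
Klf2 (chr8:72318812-72319061, plus strand): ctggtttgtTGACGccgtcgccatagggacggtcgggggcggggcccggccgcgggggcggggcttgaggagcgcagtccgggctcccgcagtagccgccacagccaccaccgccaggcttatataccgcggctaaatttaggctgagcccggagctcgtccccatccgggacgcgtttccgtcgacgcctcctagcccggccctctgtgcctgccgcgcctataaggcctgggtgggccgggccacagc
Klf6 (chr13:5861239-5861488, plus strand): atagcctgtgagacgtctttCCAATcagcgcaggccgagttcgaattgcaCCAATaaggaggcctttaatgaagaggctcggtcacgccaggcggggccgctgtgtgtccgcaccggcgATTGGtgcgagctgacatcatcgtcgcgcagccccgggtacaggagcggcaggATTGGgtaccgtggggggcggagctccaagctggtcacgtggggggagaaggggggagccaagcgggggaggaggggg
Klf13 (chr7:63938916-63939165, minus strand): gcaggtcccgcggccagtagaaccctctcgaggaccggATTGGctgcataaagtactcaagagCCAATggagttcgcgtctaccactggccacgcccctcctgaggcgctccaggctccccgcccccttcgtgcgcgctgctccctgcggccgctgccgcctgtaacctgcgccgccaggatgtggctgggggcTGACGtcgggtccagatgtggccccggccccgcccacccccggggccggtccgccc

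*Nr4a3* and *Nr4a2* each held 4 TGACG elements in these 250 bases. Of the 32851 promoters in the RefSeq table, 0.137% hold 4 or more and 17.8% hold at least 1. In *Nr4a3* the elements began at positions -231, -213, -205 and -147 from the start site, and in *Nr4a2* at -200, -144, -123 and -111. *Klf2* and *Klf13* each held 1 TGACG, *Klf6* held 0, and 6 of the 8 members held at least 1 in a promoter. *Klf6* instead held 4 CCAAT elements, and 0.840% of all promoters hold 4 or more. The full palindrome TGACGTCA, which contains TGACG and occurs in 1.55% of all promoters, was found in 0 members, and so was the κB site (3.90% of all promoters). A CArG box, the element of serum response factor (1.47% of all promoters), was found before 4 of the 5 listed starts of *Egr2* and in no other member. Some of these starts lie close together and share the same box, so these are not 4 separate boxes. The GC box GGGCGG was present in at least 1 promoter of all 8 members, though not before every start of *Egr2*, and in 32.7% of all promoters. Counts of members take any listed start, and *Egr2* has 5, whereas the shares are per promoter. The 12 member promoters had 15 to 44 CpG dinucleotides, against a median of 6. These matches describe the letters in the window and say nothing of binding.

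*Nr4a3*, *Klf2*, *Klf6* and *Klf13* were each higher in all 3 LPS samples than in any untreated sample. *Klf3*, *Klf4*, *Egr2* and *Nr4a2* overlapped between the groups. Separation in the same direction was seen in 13.1% of all 23049 genes tested and in 24.5% of the 6004 protein-coding genes with a mean value of 1 or more, beside 4 of the 8 members. Separation with LPS below was seen in 0 members, in 9.75% of all genes and in 10.1% of those protein-coding genes. The study set its limits at p under 0.01 without adjustment and at log2 fold changes beyond 2 in either direction. With limma on log2(scaled TPM + 1) and these limits, 0 members were called higher and 0 lower, whereas 1.69% of all genes were called higher and 1.31% lower, and 2.31% and 0.353% of the 12755 protein-coding genes. At an unadjusted p under 0.05, 3 members were higher (*Nr4a3*, *Klf2* and *Klf13*) and 0 lower, beside 10.3% and 6.66% of all genes and 20.5% higher among protein-coding genes with a mean of 1 or more. No member reached a Benjamini-Hochberg adjusted p under 0.05, a limit that 0.894% of all genes passed as higher and 0.946% as lower, and the adjusted p of the members ran from 0.13 to 0.78. The study itself tested read counts with edgeR and limma-voom. The voom method expects read counts, so its results on these scaled TPM values are given only as an alternative. It called 3 members higher, *Klf2*, *Klf13* and *Nr4a3*, and 0 lower, where it called 6.73% of all genes higher and 0.768% lower. The median log2 fold change was 1.19 over the 8 members, 0.01 over all genes tested and 0.37 over protein-coding genes with a mean of 1 or more.

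**Figure D1:**
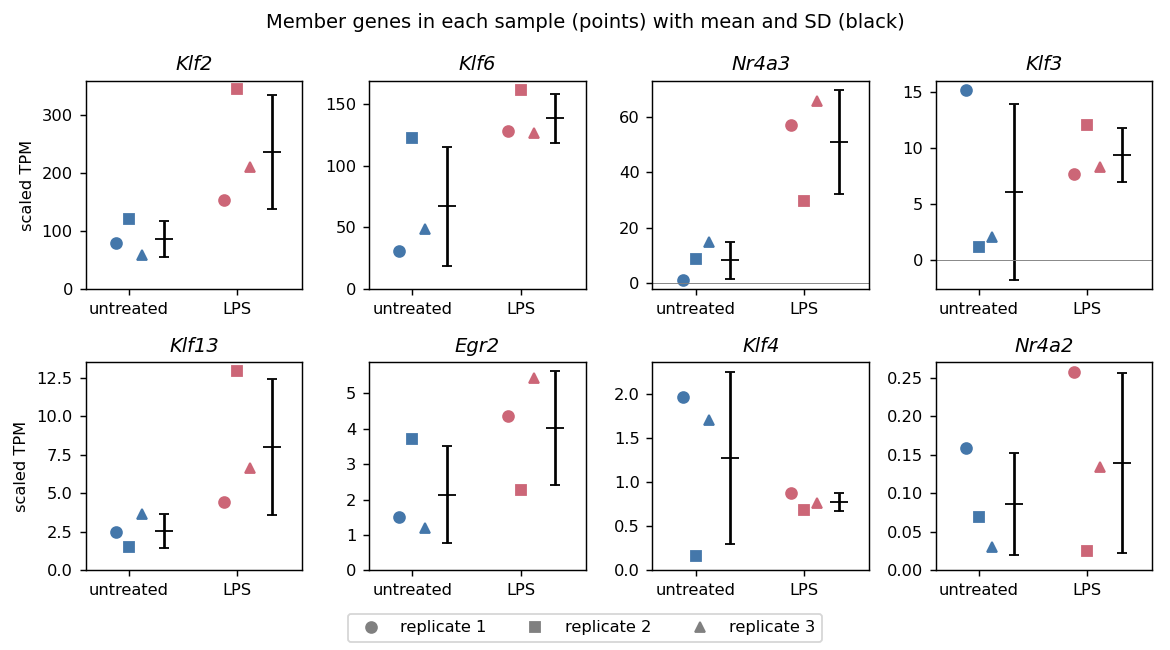
Scaled TPM (y axis, linear, a separate scale for each gene) of the 8 members in untreated (blue) and LPS (red) samples, with circle, square and triangle for replicates 1, 2 and 3 and the mean with its SD in black. The LPS points of *Klf2*, *Klf6*, *Nr4a3* and *Klf13* lie above all untreated points, and those of the other 4 genes do not.

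The scale of the values bears on each of these differences. Protein-coding genes took 21.6 to 29.0% of the summed value in untreated samples and 50.6 to 59.99% in LPS samples, and their mean total was 1.41 times higher after LPS. When every sample was scaled to the same protein-coding total, 2 members were still separated, *Klf2* and, only just, *Nr4a3*, whereas *Klf6* and *Klf13* overlapped. With this scaling 14.3% of the protein-coding genes with a mean of 1 or more were separated with LPS above, and 11.8% were higher at an unadjusted p under 0.05, as were 2 members. The calls over all genes turned from 389 higher and 301 lower to 221 higher and 516 lower under the same change. Fold changes of the members are therefore given on both scales. On equal totals the log2 fold changes of *Klf3*, *Klf4*, *Egr2* and *Nr4a2* were 0.70, -0.51, 0.39 and 0.03. The median on equal totals was 0.74 over the members and 0.02 over protein-coding genes with a mean of 1 or more.

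*Nr4a3* encodes NOR-1 and lies on chromosome 4 (GRCm39, 48045153 to 48086447, plus strand). Without treatment its scaled TPM values were 1.28, 8.69 and 14.7, and with LPS they were 57.0, 29.7 and 65.5. On this scale even the lowest LPS sample, replicate 2, lay well above the highest untreated sample. The untreated samples differed among themselves by 11.5 times. The mean went from 8.23 ± 6.73 to 50.8 ± 18.7 (SD, n = 3), a ratio of 6.17. Its log2 fold change of 2.81 (standard error 0.77, 95% interval 0.92 to 4.69, limma adjusted p = 0.13) was the largest of the 8 members, and its unadjusted p just missed the limit of the study. On the scale of equal protein-coding totals it was 2.38 (standard error 0.85, limma adjusted p = 0.24). Over all settings tried its fold change stayed between 1.99 and 3.58 and its adjusted p between 0.0093 and 0.37. Testing only genes with a mean of 1 or more, with the same fold change, brought it inside the limits (limma adjusted p = 0.060).

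*Nr4a2*, which encodes NURR1 and lies on chromosome 2 (56996842 to 57014331, minus strand), stood at the other end. Its values were 0.159, 0.0696 and 0.0307 scaled TPM untreated and 0.258, 0.0246 and 0.135 after LPS, the lowest of the 8 members in both groups. The lowest value of all was an LPS sample, and the log2 fold change was 0.06 (standard error 0.09, 95% interval -0.16 to 0.29, limma adjusted p = 0.71). The digits of 1 of the 2 samples checked show means over the transcripts of a gene, and the other sample, if rescaled, could not show them. If all deposited values are such means, genes with many listed transcripts get lower values. GENCODE M39 lists 33 for *Nr4a2* and 4 for *Nr4a3*, and the annotation the authors used is not given. With a pseudocount of 1, a gene at this level cannot show a large fold change, and with a pseudocount of 0.1 the value was 0.29. Over all settings the fold change ran from -0.26 to 0.83 and the adjusted p from 0.016, with voom, to 0.97.

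*Klf2* lies on chromosome 8 (73072726 to 73075502, plus strand), where *Eps15l1* overlaps it on the other strand. Untreated cells had 79.3, 120.1 and 58.7 scaled TPM, and LPS-treated cells 153, 344 and 210.2. The 3 LPS values all lay above the highest untreated value, with replicate 2 the highest of each group. The mean went from 86.1 ± 31.2 to 236 ± 98.0 (SD, n = 3), a ratio of 2.74. The log2 fold change of 1.43 (standard error 0.44, 95% interval 0.36 to 2.49) had a limma adjusted p of 0.17, which ran from 0.0067 to 0.39 over all settings. On equal protein-coding totals it was 0.94 (standard error 0.33, limma adjusted p = 0.23). With TPM taken over protein-coding genes alone, *Klf2* was at 403 to 629 in untreated and at 744 to 1232 in LPS samples.

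*Klf6* lies on chromosome 13 (5911481 to 5920393, plus strand). Its untreated values were 30.9, 122 and 48.3 scaled TPM, and its LPS values 128, 162 and 126. One untreated sample, replicate 2, had nearly the level of the LPS samples, so that the groups were only just separate. The mean went from 67.2 ± 48.5 to 139 ± 20.0 (SD, n = 3), with a log2 fold change of 1.26 (standard error 0.53, 95% interval -0.04 to 2.56, limma adjusted p = 0.31). Without that untreated sample it was 1.81 (limma adjusted p = 0.068), and without untreated replicate 1 it was 0.83 (limma adjusted p = 0.42), with a range of the adjusted p over all settings of 0.021 to 0.56. On equal protein-coding totals it was 0.78 (limma adjusted p = 0.46), and in TPM over protein-coding genes alone the untreated sample lay above all 3 LPS samples, at 641 against 579 to 621.

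*Klf13* lies on chromosome 7 (63536099 to 63588663, minus strand). Its values were 2.47, 1.498 and 3.67 scaled TPM untreated and 4.43, 12.9 and 6.66 after LPS. The gap between the groups was small, and LPS replicate 2 was the highest value. From 2.55 ± 1.09 the mean went to 8.01 ± 4.41 (SD, n = 3), with a log2 fold change of 1.28 (standard error 0.47, 95% interval 0.15 to 2.42, limma adjusted p = 0.24). This value was 0.91 without LPS replicate 2 and 0.87 (limma adjusted p = 0.40, over all settings 0.018 to 0.50) on equal protein-coding totals.

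*Klf3* lies on chromosome 5 (64959875 to 64990261, plus strand) and had 15.2, 1.15 and 2.05 scaled TPM untreated and 7.74, 12.1 and 8.35 after LPS. The highest of the 6 values was untreated replicate 1, whereas the other 2 untreated samples lay below all LPS samples. Its log2 fold change was 1.11 (standard error 0.79, limma adjusted p = 0.55), and without untreated replicate 1 it was 2.00 (limma adjusted p = 0.077, over all settings up to 0.84). Without untreated replicate 2 it was 0.54 (limma adjusted p = 0.68). The lncRNA *Gm20033* overlaps *Klf3* on the other strand and holds an identical stretch of 429 bases of its transcript. Reads of the pair may be shared if Kallisto did not use the strand, and its strand setting is not given.

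*Klf4*, on chromosome 4 (55527139 to 55532528, minus strand), had untreated values of 1.97, 0.162 and 1.70 scaled TPM and LPS values of 0.878, 0.683 and 0.764. All LPS samples lay between the untreated ones. It was the one member with a negative log2 fold change, -0.25 (standard error 0.44, 95% interval -1.33 to 0.83, limma adjusted p = 0.78). Stretches of 175 and 179 bases of its transcript are near-identical to *Gm48923* and *Gm71760*.

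*Egr2* lies on chromosome 10 (67371305 to 67378018, plus strand). Its values were 1.51, 3.72 and 1.19 scaled TPM untreated and 4.37, 2.27 and 5.43 after LPS. In replicate 2 the untreated sample was the higher one, and in the other numbers the LPS sample was. With all samples the log2 fold change was 0.71 (standard error 0.45, 95% interval -0.39 to 1.80, limma adjusted p = 0.49).

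**Figure D2:**
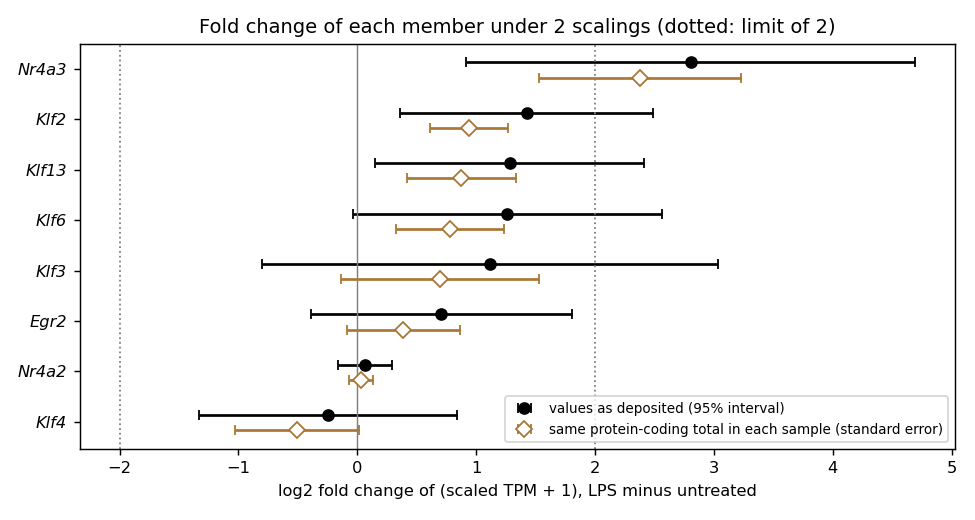
Log2 fold change of scaled TPM + 1, LPS minus untreated (x axis), for each member, with the values as deposited (black, 95% interval) and with each sample scaled to the same protein-coding total (brown, standard error). *Nr4a3* is highest on both scales, 2.81 and 2.38, every point is lower on the second scale, and the dotted lines mark the fold limit of 2.

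The order of the mean levels was the same in both groups, *Klf2*, *Klf6*, *Nr4a3*, *Klf3*, *Klf13*, *Egr2*, *Klf4* and *Nr4a2*, in scaled TPM. If these values are means over the transcripts of a gene, levels of different genes are not directly comparable. GENCODE M39 lists 33 transcripts for *Nr4a2* and 27 for *Klf3*, but 4 for *Nr4a3* and for *Klf13*. *Klf2* and *Klf6* overlapped in both groups. In untreated samples *Nr4a3* (1.28 to 14.7) overlapped with *Klf3* (1.15 to 15.2), whereas after LPS *Nr4a3* (29.7 to 65.5) lay apart from *Klf6* above it and *Klf3* (7.74 to 12.1) below it. After LPS *Klf3* overlapped with *Klf13*, and *Klf13* with *Egr2*, whereas *Egr2* (2.27 to 5.43), *Klf4* (0.683 to 0.878) and *Nr4a2* (0.0246 to 0.258) lay apart from each other.

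The spread within groups differed between the members. In untreated samples the highest value exceeded the lowest 13.2 times for *Klf3*, 12.1 times for *Klf4*, 11.5 times for *Nr4a3* and 3.96 times for *Klf6*, and in LPS samples 1.57, 1.29, 2.20 and 1.28 times. *Klf2*, at 2.05 and 2.24 times, was about as spread in one group as in the other. In all, 5 of 8 members had the larger SD of log2 values when untreated, as did 82.8% of the protein-coding genes with a mean of 1 or more. In scaled TPM the members also fell into opposite patterns within the LPS group. *Klf2*, *Klf3*, *Klf6* and *Klf13* were highest in LPS replicate 2, and *Klf4*, *Egr2*, *Nr4a2* and *Nr4a3* were lowest in it. In TPM over protein-coding genes alone, *Klf6* was instead lowest in LPS replicate 2, at 579 against 610 and 621. *Klf4* and *Klf6* varied little within this group. How many genes over all follow either pattern was not counted.

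The same replicate number stood apart in its cell markers. The summed level of 14 neutrophil markers (of 16 listed) was 28504 scaled TPM in untreated replicate 2, against 9741 and 9939 in the other 2, and 54649 in LPS replicate 2, against 16076 and 18262. The 6 B cell markers (of 8) ran the other way, at 282 against 1042 and 1118 untreated, and at 264 against 733 and 803 after LPS. The groups overlapped for both lists, but within each replicate number the neutrophil sum was higher and the B cell sum lower in the LPS sample. *S100a8* and *S100a9*, which encode the calprotectin subunits, made up 86.1 to 92.8% of the neutrophil sum, and without them replicate 2 was still the highest, at 3947 untreated and 6405 after LPS. Most of that rest in the LPS samples was *Lcn2*, at 879, 4887 and 1190 of 1310, 6405 and 1641. In untreated samples *Lcn2* was at 77.0, 1284 and 94.7. Single neutrophil markers differed from the sum: 4 of the 14 had all LPS samples below all untreated ones and 0 the reverse. *Cxcr2*, a chemokine receptor, was at 39.4 to 119.9 untreated and 7.10 to 23.6 after LPS, *Csf3r*, the receptor of G-CSF, was at 251 to 525 and 138 to 233, and *Camp*, a granule peptide, was lowest in untreated replicate 2. Defining B cell genes were above 0 in every sample, with *Cd79a* at 27.4 to 457 untreated and 36.6 to 134 after LPS. *S100a8* was listed at 2086 to 8405 untreated and 5536 to 19851 after LPS, while *Elane*, a gene of immature neutrophils, was listed at 0 in all samples. Macrophage and monocyte markers (10 of 14) summed to 1076 to 1537 untreated and 803 to 1114 after LPS, mostly from *Lyz2*, a lysozyme gene that neutrophils also express (872 to 1367 and 532 to 695). Of these 10, *Cd68* and *C1qb* had all LPS samples above the untreated ones (157 to 179 against 229.9 to 381, and 0.712 to 4.75 against 17.3 to 23.9), and *Lyz2*, *Ccr2* and *Mrc1* had all below. Sums of T and NK cell (7 of 8; 10.8 to 15.04 and 5.21 to 12.6), mast cell (4 of 7; 25.7 to 85.1 and 83.1 to 132), eosinophil (5 of 6; 3.10 to 8.52 and 2.02 to 5.31), erythroid and platelet (7 of 8; 18.0 to 1717 and 94.8 to 2573) and mesothelial markers (5 of 6; 0.217 to 1.08 and 0.736 to 0.946) overlapped as well. In such bulk samples a change in the share of a cell type and a change in RNA per cell cannot be told apart, and the part of these markers in the results of the members was not tested.

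**Figure D3:**
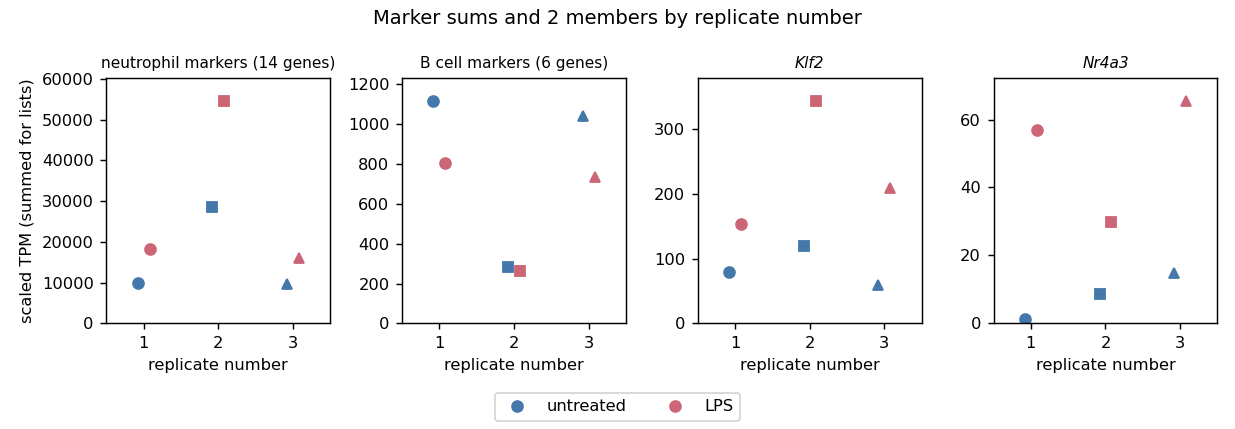
Summed scaled TPM of the neutrophil and B cell marker lists and scaled TPM of *Klf2* and *Nr4a3* (y axes, linear from 0), by replicate number (x axis), in untreated (blue) and LPS (red) samples. Replicate 2 has the highest neutrophil sum (28504 and 54649) and the lowest B cell sum (282 and 264) of each group.

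Leaving out replicate 2 of both groups, an alternative chosen after seeing these markers, left 0 members called. The log2 fold change of *Klf2* was then 1.38 (standard error 0.31, limma adjusted p = 0.14), and that of *Nr4a3* was 3.38 (standard error 1.06, limma adjusted p = 0.21). *Klf6* (1.69, limma adjusted p = 0.12) and *Egr2* (1.32, limma adjusted p = 0.15) had larger values than with all samples, and *Klf13* (0.68, limma adjusted p = 0.42) and *Klf3* (0.36, limma adjusted p = 0.84) smaller ones.

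Relatives and partners of these factors were read from a list of 59 genes. The table holds 39 of them, and 36 were above 0 in some sample. With limma and the limits of the study 0 were called higher and 0 lower, beside the 1.69% and 1.31% of all genes. At an unadjusted p under 0.05, 4 were higher and 1 lower (*Egr4*), beside 10.3% and 6.66% of all genes, so the share of higher genes was near that background. The lowest adjusted p was 0.11. Separate groups with LPS above were seen in 4 of the 36, beside 13.1% of all genes and 24.5% of protein-coding genes with a mean of 1 or more. So the list was not above that background. Separation with LPS below was seen in 0 of them, beside 9.75% of all genes. The median log2 fold change of the list was 0.07. The voom method called 3 of them higher, *Klf7*, *Klf16* and *Crtc2*, beside 6.73% of all genes.

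Among the other KLF genes, 7 of 12 are in the table. *Klf7* and *Klf16* had separate groups with LPS above, as did 13.1% of all genes. *Klf7*, a widely expressed member known from neuronal development, had 0.465, 9.11 and 0.428 scaled TPM untreated and 9.14, 22.8 and 15.1 after LPS, so that untreated replicate 2 lay only just below the lowest LPS sample. Its log2 fold change was 2.51 (standard error 0.85, limma adjusted p = 0.21). *Klf16*, known as a repressor of dopamine receptor genes, was at 1.91, 0.614 and 3.93 untreated and at 11.1, 7.40 and 9.94 after LPS. Its log2 fold change was 1.86 (standard error 0.48, limma adjusted p = 0.11), and 1.47 on equal protein-coding totals. *Klf11* overlapped between the groups (log2 fold change -0.32, limma adjusted p = 0.71). *Klf1*, the erythroid member, and *Klf17* were each at most 0.0717 in all samples, and *Klf14* and *Klf15* were listed at 0.

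Of the EGR family and its corepressors, 4 of 6 are in the table. *Egr4* was listed at 3.76, 0.628 and 3.75 scaled TPM untreated and at 0.121, 0.166 and 0.641 after LPS, the opposite direction to *Egr2*. One LPS value lay just above the lowest untreated value, and the log2 fold change was -1.37 (standard error 0.52, limma adjusted p = 0.26). *Nab1*, a corepressor that binds EGR proteins, had a log2 fold change of 1.12 (limma adjusted p = 0.33), and *Nab2*, its paralog, of 0.07 (limma adjusted p = 0.91). *Wt1*, a zinc finger gene related to the EGR genes, was at most 0.381 in all samples. The other genes of these families were not analysed here.

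Among 13 of 20 upstream activators in the table, 2 had separate groups with LPS above, beside 13.1% of all genes. *Crtc2*, a coactivator of the cyclic AMP response element binding protein CREB, was listed at 8.75, 2.23 and 7.83 scaled TPM untreated and at 22.2, 20.8 and 30.6 after LPS. Each LPS sample had more than the highest untreated sample, with a log2 fold change of 1.95 (standard error 0.50, limma adjusted p = 0.11), or 1.496 on equal protein-coding totals. *Mapk7*, the kinase ERK5 that acts upstream of *Klf2* in endothelium and was named after its values were seen, had a log2 fold change of 1.11 (limma adjusted p = 0.26). *Map3k3*, a kinase upstream of ERK5, was lower on average, at -1.24 (limma adjusted p = 0.37). Of 7 SP factors in the table, *Sp2* (-1.17, limma adjusted p = 0.38) and *Sp3* (0.28, limma adjusted p = 0.85) had the largest fold changes, and of 4 KLF corepressors *Sin3a* (0.62, limma adjusted p = 0.55) and *Wwp1* (0.55, limma adjusted p = 0.56) did.

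Of 7 genes known as KLF targets in other cells, 4 are in the table, and the groups of all 4 overlapped. *S1pr1*, the sphingosine 1-phosphate receptor gene that KLF2 activates in T cells, had a log2 fold change of 0.95 (limma adjusted p = 0.37). *Thbd*, which encodes thrombomodulin, was at 12.4 in untreated replicate 2 and between 0.604 and 2.19 in the other samples (log2 fold change -1.06, limma adjusted p = 0.55).

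**Figure D4:**
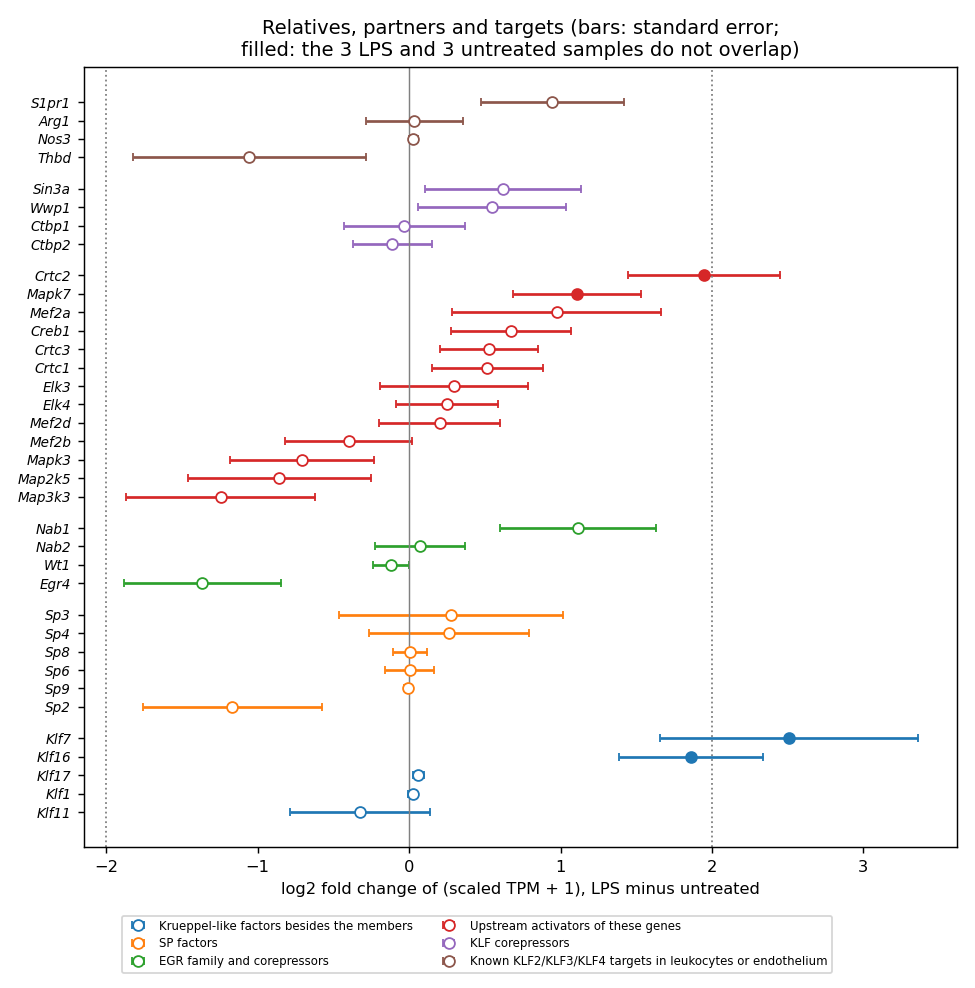
Log2 fold change of scaled TPM + 1, LPS minus untreated (x axis), of the 36 listed relatives, partners and targets above 0, with standard errors and colours for subgroups. Filled points, whose 3 LPS and 3 untreated samples do not overlap, are *Klf7*, *Klf16*, *Crtc2* and *Mapk7*, all with higher LPS values. Such separation was seen in 13.1% of all genes.

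The transcripts of the members were also searched for ATTTA, the core of AU-rich elements that mark short-lived mRNAs, after the stop codon of the GENCODE M39 canonical transcript. The density was 2.50 per kb in *Egr2*, 2.26 in *Nr4a2*, 2.25 in *Klf6*, 1.86 in *Klf3*, 1.62 in *Nr4a3*, 1.36 in *Klf2*, 1.01 in *Klf4* and 0.582 in *Klf13*, against a median of 1.38 over 19609 genes. The 4 members with separate groups thus lay on both sides of the median.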

How the data were processed

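Values of 6 samples were analysed, 3 untreated and 3 with LPS, grouped by their titles. Per the methods of the study and the submitters' processing notes, the authors used fastp, STAR with GRCm39 (the notes also name mm10) and Kallisto, and then edgeR for normalization. Versions of these tools and the annotation are not given in the sources used here. The deposited values, labelled normalized counts, were treated here as TPM: each appears to be the mean of a gene's transcripts, rescaled by sample. In the third untreated sample, 85.8% of 1243 long decimals became short when multiplied by a whole number from 3 to 60, against 3.17% of 6412 in the first LPS sample. The library kit keeps the strand, and the strand setting of Kallisto is not given.

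Genes above 0 in at least 1 sample (23049) were tested with limma 3.58.1 in R 4.3.3 on log2(value + 1), with a mean-variance trend, two-sided and without covariates, and p-values were adjusted by the Benjamini-Hochberg method over all of them. Read counts cannot be recovered from TPM, so no test was run on counts. The voom method, which expects counts, was applied to the scaled TPM only as an alternative. The self-test used simulated data. Gene places and types come from GENCODE M39 (GRCm39), promoters from RefSeq (GRCm38.p6, all 8 members matched), and motifs were searched on both strands. Near-identical stretches were those of 95% identity or more (blastn).

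Genes named are the 8 members, every measured KLF, EGR and NAB gene of the list, and in other subgroups the called genes and the 2 largest fold changes. A gene of that list is not reported here, and the list's counts leave it out. Genes of like profile were to be named for called members, and 0 were called. The members and lists were chosen with earlier results of these data known. Alternatives were other pseudocounts, filters, scalings and variance models, a replicate block and leaving samples out. Protein-coding genes alone, and leaving out replicate 2 of both groups, were added after seeing the data.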

Additional observations from a re-analysis of the deposited data

How the results depend on the processing

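With 6 samples and no read counts, the spread between 3 samples is the only measure of precision. The members called higher numbered 0 in the main analysis, 1 (*Nr4a3*) with a pseudocount of 5, with genes of mean 1 or more, with centring on the protein-coding median and with protein-coding genes alone, 3 with voom (*Klf2*, *Klf13* and *Nr4a3*), and 0 to 1 as samples were left out (*Nr4a3* without untreated replicate 3, at 3.39). Listed relatives called higher numbered 1 with a pseudocount of 0.1 (*Crtc2*), 3 with voom, and 0 to 1 as samples were left out (*Crtc2*, *Klf7* and *Klf16* without untreated replicate 1, 2 and 3, and *Klf7* without replicate 2 of both groups). Over all genes, 389 higher and 301 lower became 856 and 493 with a pseudocount of 0.1, 129 and 168 with one of 5, 221 and 516 on equal protein-coding totals and 1552 and 177 with voom, which divides each sample by its own sum, a sum that was lower after LPS. Centring on the protein-coding median gave 269 higher and 495 lower, and genes with a mean of 1 or more gave 406 higher and 308 lower. Protein-coding genes alone gave 300 higher and 45 lower (12755 genes were tested). An adjusted p under 0.05 gave 206 higher and 218 lower. Leaving samples out gave 260 to 463 higher and 263 to 394 lower, with 454 higher without untreated replicate 3.

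Of 143 fold changes of members under other settings, 130 kept their direction and side of the limits, 8 became calls and 5 changed sign. These were *Klf4* with voom (0.36) and as samples were left out (-0.68 to 0.00049), and *Nr4a2* with quantile normalization (-0.026), with centring (-0.26) and as samples were left out (-0.0094 to 0.14). The cause was not tested.

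Same-numbered samples deviated together only weakly (correlations of 0.10, 0.22 and 0.093 for numbers 1, 2 and 3), so the numbers were not taken as pairs, although each sample correlated best with its own number. The erythroid and platelet marker sums also kept their order by number, at 82.3, 18.0 and 1717 untreated and 352, 94.8 and 2573 after LPS. Whether same-numbered samples share an origin was not tested. With the replicate block 0 members and 1 relative (*Klf7*) were called higher, and 387 genes higher and 303 lower over all. The unadjusted limma p with the block was 0.0063 for *Klf2* (0.017 without it) and 0.031 for *Klf6* (0.055). For *Nr4a3* it was 0.014 (0.011 without the block), and for *Klf13* 0.066 (0.033). With the block and equal protein-coding totals 218 were higher and 535 lower.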
